A study of Mus musculus with 2 samples.

Results

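The regions described are the seed matches of miR-103 and miR-107 in transcripts of mouse embryonic stem cells. They were chosen by sequence alone, as every 7mer or 8mer entry of the deposited site table that begins with the reverse complement of bases 2 to 8 of mouse miR-103-3p and miR-107-3p. There were 4559 such matches, 3406 listed as 7mers and 1153 as 8mers, of 1097309 7mer and 8mer sites in the table. Of the 7mers, 228 lay inside a listed 8mer of the same seed, so the matches occupied 4331 separate places, in 3124 of 15271 genes. Where overlap with other seeds or single genes is described, each place is counted once.

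The study mapped the RNA bound by Ago2 with iCLIP, in which protein is crosslinked to RNA in living cells, the protein is pulled down, and the RNA fragments it held are sequenced. It held 1 library of the cell line TT-FHAgo2, with FLAG-HA-tagged human Ago2, and 1 library of the cell line TT-Ago2, with untagged human Ago2, as control for the pull-down by FLAG and HA antibodies. Per the series description, the doxycycline-inducible human Ago2 was the only member of the Argonaute family that these cells expressed. Both lines were clonal, were kept in 0.1 µg/mL doxycycline and were given 2.5 µg/mL for 24 h. Reads at sites came from the tagged library, and the untagged library entered through the authors' enrichment values for clusters.

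With 1 library per group there was no spread between replicates and no test of a difference. Every interval given is an exact (Clopper-Pearson) 95% binomial interval, which covers counting error only. Reads are PCR products and are not taken as independent molecules. The tagged library had 789000 reads as recovered from the table, and 1485 of them (0.188%) lay over the 4331 places. A site was said to have a read when at least 1 read covered it. Expression is the isoform FPKM of the table, a length-scaled measure of transcript abundance, and the table starts at 0.1 FPKM. The 10 embryonic stem cell markers examined were all listed, at a median of 231 FPKM from 1.15 for Dppa4 to 609 for Pou5f1. Of the trophectoderm markers 6 of 8 were listed, at 0.218 to 13.9 FPKM, with Cdx2 and Elf5 not listed. Of the primitive endoderm markers 5 of 8 were listed, at 0.101 to 6.05 FPKM, with Gata6, Sox17 and Pdgfra not listed. Of the fibroblast markers 4 of 7 were listed, at 0.275 to 45 FPKM (the highest was Vim), with Col1a1, Col1a2 and Col3a1 not listed. Of the neural and mesoderm markers 6 of 8 were listed, at 0.1 to 40.1 FPKM (the highest was Tubb3), with Sox1 and T not listed.

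miR-103 and miR-107 are a pair of closely related microRNAs encoded in introns of pantothenate kinase genes, whose products start the synthesis of coenzyme A. A microRNA loaded into an Argonaute protein finds its targets mainly by pairing of its seed, the bases near its 5′ end, with a complementary stretch of mRNA, usually in the 3′ UTR, and the target is then repressed and degraded. The pair is known for effects on insulin sensitivity, on the cell cycle and on Dicer, the enzyme that makes microRNAs. Their seed overlaps that of the miR-15/16 family, which is known for repression of cell cycle genes, with the register moved by 1 base.

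The mature sequences show why matches of both families can share bases. They are given 5′ to 3′ from RefSeq (GRCm38.p6), with the seed, bases 2 to 8, in capitals.
miR-103-3p: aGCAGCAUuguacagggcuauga
miR-107-3p: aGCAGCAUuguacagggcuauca
miR-15a-5p: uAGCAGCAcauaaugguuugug
miR-16-5p: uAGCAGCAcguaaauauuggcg
miR-103-3p and miR-107-3p differed at 1 base, G22C counted from 1 at the 5′ end, outside the seed, so no match can be given to one or the other.

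The matches in mRNA follow, as DNA letters of the table, 5′ to 3′. In the first 4 the capitals mark the 7 bases that pair with the seed, and the 8mer adds an A. In the last 2, where 1 stretch holds a 7mer of each family, the capitals mark the bases that both matches share.
miR-103/miR-107 7mer: ATGCTGC
miR-103/miR-107 8mer: ATGCTGCa
miR-15/16 7mer: TGCTGCT
miR-15/16 8mer: TGCTGCTa
miR-103/miR-107 7mer joined to a miR-15/16 7mer: aTGCTGCt
miR-103/miR-107 7mer joined to a miR-15/16 8mer: aTGCTGCta
The base after the match therefore sorts the places into 3 classes. Followed by A, it is a miR-103/miR-107 8mer (1153 places). Followed by T, it also holds the miR-15/16 match (1542 places). The 1636 other 7mers are followed by C or G or by a base that the table does not show.

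Of the 4559 matches, 702 (15.4%, interval 14.4 to 16.5%) had a read in the tagged library, against a background of 12.7% of the sites of all 50 listed seeds. In 3′ UTRs 387 of 1689 matches (22.9%, interval 20.9 to 25%) had one, beside a background of 20.1% and beside 11.5% of the other 8mers that overlap no listed match. Coding sequence held slightly more matches, and fewer of them had a read: 285 of 1734 (16.4%, interval 14.7 to 18.3%), beside a background of 13.1%. In 5′ UTRs the share was 19 of 196 (9.69%), beside a background of 10.8%. Long noncoding RNAs held 740 matches but reads at 7 (0.946%), beside a background of 0.823%. Their matches had a median expression of 0.348 FPKM, against 3.45 for the matches in 3′ UTRs. Pseudogenes had reads at 4 of 200 matches (2%), beside a background of 2.1%. In these 3 regions the shares were near the background.

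Ranked by the share of 3′ UTR sites with a read, ATGCTGC was 12 of the 50 listed 7mers. Its neighbours in that order were CTTTGAT at 22.9% and TACTTGA, the miR-26 match, at 22.7%, both within its interval. The miR-15/16 match TGCTGCT was 7 of 50, at 30.2% (interval 28.8 to 31.7%). First was GCACTTT, the match of miR-17, miR-20, miR-93 and miR-106, at 56.6%. Sites that hold only a 6mer of the miR-103/miR-107 seed had reads at 806 of 4103 in 3′ UTRs (19.6%, interval 18.4 to 20.9%). These 6mers exclude those inside a longer match of either family, whereas the 22.9% of the longer matches includes places shared with miR-15/16. Without matches that overlap miR-15/16, the 8mers were at 20.8% (interval 17 to 25%) and the 7mers at 17.3% (interval 14.4 to 20.5%). The 6mers lay between these 2, with overlapping intervals.

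The longer match did not have the higher share. In 3′ UTRs 88 of 423 8mers (20.8%, interval 17 to 25%) had a read, against 299 of 1266 7mers (23.6%, interval 21.3 to 26.1%), and these intervals overlap. Over all listed seeds the order was the other way, 21.2% for 8mers and 19.7% for 7mers. For miR-15/16 the 8mers stood well above the 7mers, at 38.9% (interval 34.7 to 43.3%) and 28.9% (interval 27.4 to 30.5%).

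Sorting by the following base set the 7mers of the miR-103/miR-107 seed apart. Of the 639 3′ UTR places that also hold the miR-15/16 match, 190 (29.7%, interval 26.2 to 33.4%) had a read. Of the 545 other 7mer places 95 had one (17.4%, interval 14.3 to 20.9%), and of the 423 8mers 88 (20.8%, interval 17 to 25%). The joint places lay above both other classes with intervals that do not overlap, and the 8mers and the other 7mers overlapped. Where the joint place ended in the A of a miR-15/16 8mer, 43 had a read (41.7% of such places, interval 32.1 to 51.9%). Seen from the other family, miR-15/16 places had a read in 29.6% (189 of 639) when they also held a miR-103/miR-107 match and in 30% (975 of 3250) when they did not. In coding sequence joint places were again highest, with smaller gaps: 19% of 554 joint places, 15.8% of 647 other 7mers and 14.7% of 449 8mers, with overlapping intervals.

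**Figure D1:**
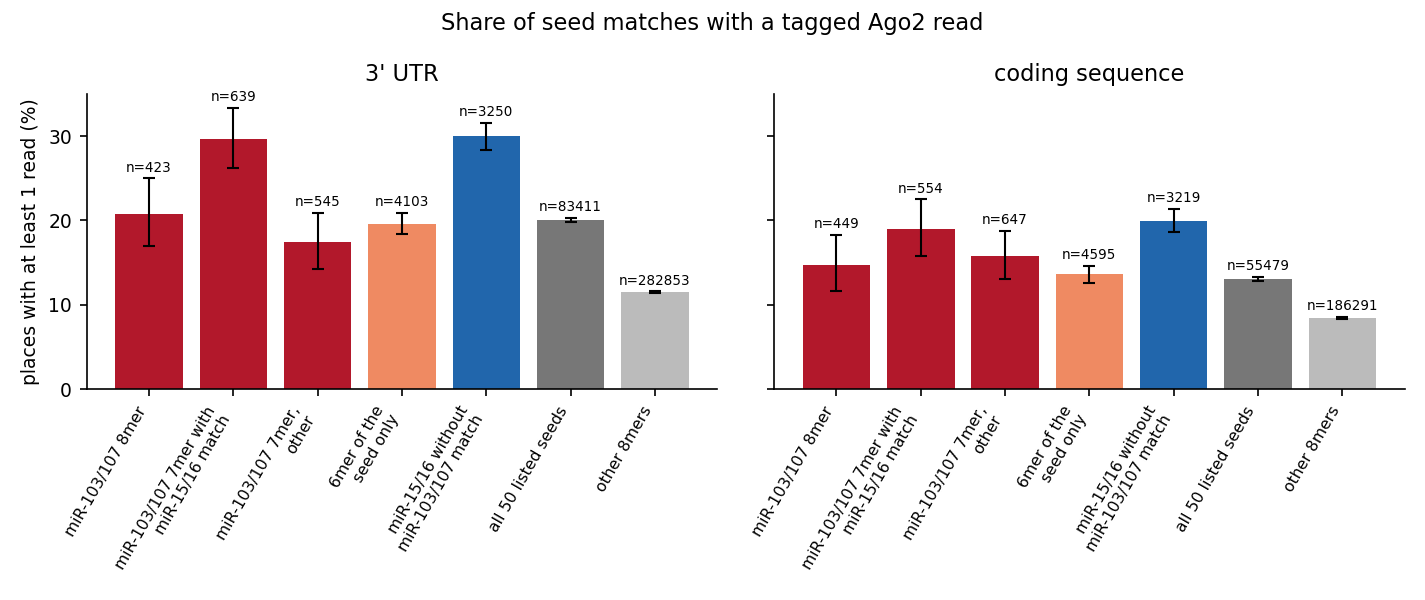
Share of places with at least 1 tagged Ago2 read (percent, vertical axis) in 3′ UTRs and in coding sequence, for the 3 classes of miR-103/miR-107 places, sites with only a 6mer of that seed, miR-15/16 places without a miR-103/miR-107 match, the sites of all 50 listed seeds and the other 8mers. Bars start at 0, error bars are exact 95% binomial intervals for counting error, and n is the number of places. In 3′ UTRs the miR-103/miR-107 places with a miR-15/16 match (29.7%) stand level with the miR-15/16 places that have no miR-103/miR-107 match (30%), and the 2 other miR-103/miR-107 classes (20.8 and 17.4%) stand near all listed seeds (20.1%).

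The share with a read followed expression. Among the 3′ UTR places of miR-103/miR-107 it was 10.4% at 0.1 to 1 FPKM (453 places), 18% at 1 to 3, 25.9% at 3 to 10, 35.2% at 10 to 30 and 42.5% at 30 FPKM and above (153 places). The sites of all 50 seeds had 8.52, 14.8, 22.8, 30.7 and 36.6% in the same classes. Median expression was close in the 3 miR-103/miR-107 classes, 3.53 FPKM for 8mers, 3.6 for joint places and 3.34 for other 7mers. Within expression classes the joint places had the highest share of the 3 in all but the top one. Below 10 FPKM their intervals overlapped those of both other kinds of place in each expression class. At 10 to 30 FPKM 57 of 108 joint places (52.8%, interval 42.9 to 62.5%) had a read, against 18 of 79 8mers (22.8%, interval 14.1 to 33.6%) and 21 of 86 other 7mers (24.4%). At 30 FPKM and above the 8mers were highest, at 21 of 40 (52.5%, interval 36.1 to 68.5%), beside 46.2% of 65 joint places, with overlapping intervals.

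**Figure D2:**
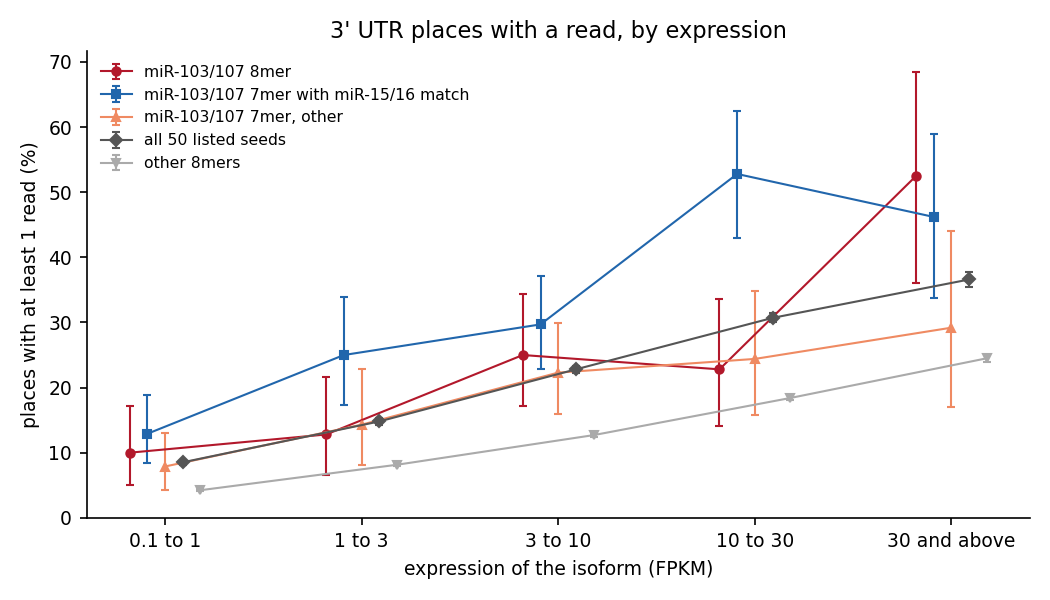
Share of 3′ UTR places with at least 1 read (percent, vertical axis) by isoform expression class (FPKM, horizontal axis) for the 3 classes of miR-103/miR-107 places, all 50 listed seeds and the other 8mers, with exact 95% binomial intervals. Every line but that of the joint places ends at its highest value in the top class. The joint places reach 52.8% at 10 to 30 FPKM, where the 8mers are at 22.8%.

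Reads were few at most places. In 3′ UTRs 1234 of 1607 places had 0 reads, 209 had 1, 66 had 2, and 4 had 20 or more. Over all regions the 10 places with most reads held 13.9% of the 1485 reads and the 50 with most held 36.7%. The deposited log2 coverage, which sets reads against expression, had a median of -1.40 over the 373 3′ UTR places with a read. It was -1.31 over miR-15/16 matches, -1.38 over the matches of the 49 other seeds and -1.75 over the other 8mers, each over sites with a read only, so the medians leave out the sites without one. The quartiles of the miR-103/miR-107 places were -2.05 and -0.62, which span all 4 medians.

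Matches of the miR-290 and miR-17 families, whose microRNAs are known to be abundant in embryonic stem cells, lay near some places. Of the 32 3′ UTR places of miR-103/miR-107 with the miR-294 match AGCACTT, the miR-17 match GCACTTT or the miR-290a match GGCACTT within 50 nt, 17 (53.1%, interval 34.7 to 70.9%) had a read, and of the other 1575 places 356 had one (22.6%, interval 20.6 to 24.8%). The other 8mers showed a gap of the same kind, 35.2% of 6575 near such a match and 11% of 276278 not near one. Without those 32 places, joint places had a read in 29.3% of 624 and places with no miR-15/16 match in 18.2% of 951. The 50 nt division was chosen after seeing the data. Counting only places that no other listed match overlaps, 174 of 932 (18.7%, interval 16.2 to 21.3%) had a read, against 199 of 675 (29.5%, interval 26.1 to 33.1%) that another listed match overlaps. How many reads at a shared place belong to either family was not tested.

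Places with reads were the more conserved ones. The phastCons score runs from 0 to 1 and is high where bases are kept between species. In 3′ UTRs 17.6% of 893 places with a score under 0.1 had a read, 24% of 288 places at 0.1 to 0.9, and 34.5% of 426 places at 0.9 and above (interval 30 to 39.2%). The matches of the 49 other seeds went from 15.2 to 19.8 to 32% over the same classes, and the other 8mers from 9.48 to 17.8% between the lowest and the highest. Expression moves with reads too, at a median of 2.59 FPKM for places with 0 reads and 7.33 FPKM for places with a read. In 3′ UTRs the order by conservation held in every expression class, from 6.69% under 0.1 against 19.2% at 0.9 and above at 0.1 to 1 FPKM to 40% against 51% at 30 FPKM and above, though the intervals of the 2 upper expression classes overlap. In coding sequence it did not: at 1 to 3 FPKM 13% of places at 0.9 and above had a read against 23.5% under 0.1, and at 30 FPKM and above 31.6% against 33.3%, with overlapping intervals. Among 3′ UTR places in clusters 23 of 39 (59%, interval 42.1 to 74.4%) had a score of at least 0.9, against 22.6% of the 1234 places with 0 reads. The 49 other seeds were similar there, at 52.2% of 2409 sites in clusters against 20% of sites with 0 reads.

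**Figure D3:**
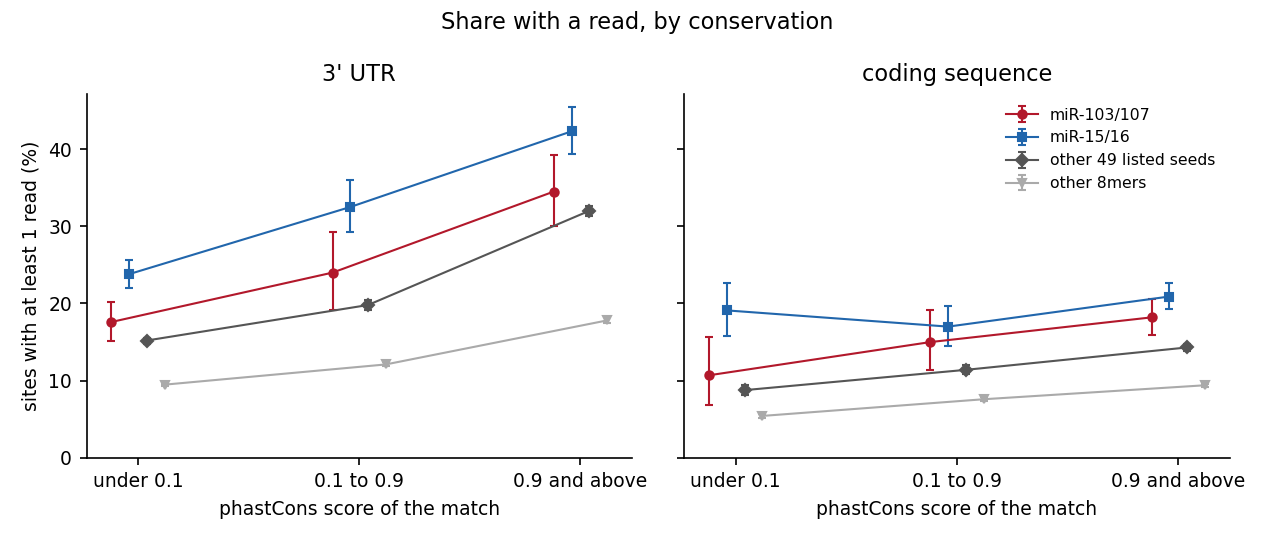
Share of sites with at least 1 read (percent, vertical axis) by phastCons class of the match (horizontal axis) in 3′ UTRs and coding sequence, for miR-103/miR-107 places, miR-15/16 matches, the other 49 listed seeds and the other 8mers, with exact 95% binomial intervals. In 3′ UTRs the miR-103/miR-107 line rises from 17.6 to 24 to 34.5%. In coding sequence it goes from 10.7 to 18.2% over all expression classes, and the intervals of neighbouring classes overlap.

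The authors also called clusters, stretches with more tagged than untagged reads at their p under 0.05, and 6211 were deposited. Of the 4559 matches 46 (1.01%, interval 0.74 to 1.34%) overlapped one by at least 1 nt, below the background of 1.45% for all listed seeds. In 3′ UTRs it was 40 of 1689 (2.37%, interval 1.7 to 3.21%), whose interval holds the background of 2.94%. That background pools all listed seeds, of which the highest were GCACTTT at 20.7%, GGCACTT at 18% and AGCACTT at 14.3%. Ranked by the share of 3′ UTR sites in clusters, ATGCTGC was 13 of the 50 listed 7mers. In coding sequence 4 of 1734 matches overlapped a cluster (0.231%, interval 0.0629 to 0.59%), below the background of 0.762%. The 3′ UTR 8mers were in clusters in 4 of 423 (0.946%, interval 0.258 to 2.4%), below the background of 3.32% for 8mers of all listed seeds, and the 7mers in 36 of 1266 (2.84%), beside 2.81%. Joint 3′ UTR places were in clusters in 25 of 639 (3.91%, interval 2.55 to 5.72%), the other 7mers in 10 of 545 (1.83%), and places with a miR-15/16 8mer in 12 cases (11.7%, interval 6.17 to 19.5%). The most similar sites were near these shares. In 3′ UTRs miR-15/16 places without a miR-103/miR-107 match were in clusters in 130 of 3250 (4%). All miR-15/16 8mers there were in clusters in 47 of 511 (9.2%, interval 6.84 to 12%).

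Over the miR-103/miR-107 places lay 53 clusters (0.853% of all), at 45 places in 44 genes. Of the 3124 genes with a place, 623 (19.9%) had a read at one and 44 (1.41%) had one in a cluster. The clusters held 5 to 42 tagged reads, at a median of 8 reads and 47 nt, against 7 reads and 43 nt over all clusters. The untagged count that the authors' values imply was 0 in 46 of the 53 (86.8%, against 85.6% of all clusters) and at most 1. Clusters of fewer than 7 tagged reads could pass the authors' threshold only with 0 untagged reads. Among those of at least 7 reads, it was 0 in 32 of 39 (82.1%, against 74.3% of all such clusters). Of the 53, 45 were in 3′ UTRs, 6 in coding sequence, 1 in a 5′ UTR and 1 in a pseudogene. For clusters, a listed match means a 7mer or 8mer, and 6mers were not counted. The miR-15/16 match lay in 31, and it was the only other listed match in 23. Another listed match than that of miR-15/16 lay in 21, and in 9 of these it was one of the 3 matches of the miR-290 and miR-17 families. No other listed match lay in 9 (17%, interval 8.07 to 29.8%), in Alpk3, Btg2, Casp2, Fem1b, Hp1bp3, Mynn and Slmap.

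Of the 15 places with most reads in 3′ UTR clusters, 11 are shown with the bases that overlapping table entries add, since these tell which other seed shares the place. For the other 4, in Ppp6c, Arhgef7, Fem1b and Btg2, the table adds no base to the 7mer. Coordinates are mm9, counted from 1, and the strand follows. Capitals mark the miR-103/miR-107 match, of 8 bases for an 8mer.
Ndel1, chr11:68635180-68635191, minus strand: ATGCTGCActta
Mcm7, chr5:138605859-138605870, minus strand: ATGCTGCActtt
Frrs1, chr3:116606644-116606652, plus strand: ATGCTGCta
Srpk1, chr17:28725672-28725680, minus strand: ATGCTGCta
Uhmk1, chr1:172127928-172127936, minus strand: ATGCTGCta
N4bp1, chr8:89368407-89368415, minus strand: ATGCTGCta
Ubr3, chr2:69861792-69861805, plus strand: ATGCTGCtaaatta
Mtmr4, chr11:87428832-87428839, plus strand: ATGCTGCt
Mapk8, chr14:34195065-34195072, minus strand: ATGCTGCt
AI837181, chr19:5426921-5426935, plus strand: ctctttgATGCTGCt
Casp2, chr6:42231902-42231915, plus strand: cttgaccATGCTGC
The first 2 are 8mers. The next 8 carry the T of the miR-15/16 match, 5 of them with the A of its 8mer, and Casp2 does not. The AI837181 place also holds the listed match CTTTGAT, which shares its first 2 capitals. The Mcm7 place runs into GCACTTT, which shares its last 3 capitals.

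The 2 8mers with most reads in 3′ UTR clusters were in Ndel1 and Mcm7. Ndel1, a partner of the motor protein dynein, had 21 reads at its 8mer at 7.89 FPKM, with a phastCons score of 1. Its cluster had 18 tagged and 0 untagged reads, at least 6-fold against a floor of 3 counts per cluster, and the authors' deposited table gave a log2 enrichment of 4.25 and p = 3.81e-06. The strongest crosslink lay 6 nt before the match, and the cluster also held the miR-30 match TGTTTAC. The place also runs into the 6mer GCACTT, with which the miR-294 and miR-290a matches both end. Mcm7, a subunit of the replicative helicase whose intron encodes miR-106b, had 17 reads at 62.8 FPKM and a cluster of 17 tagged and 0 untagged reads, at least 5.67-fold. Of the 2 3′ UTR 8mers that overlap a 7mer or 8mer match of the miR-290 or miR-17 family, that of Mcm7 had reads and that of Gpr20 had 0.

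Of these 15 places 8 were joint places. Frrs1, a ferric reductase, had 23 reads at 10.4 FPKM, with 22 tagged and 1 untagged reads in the cluster (p = 2.86e-06 in the authors' deposited table). Mtmr4, a lipid phosphatase of endosomes, had 18 reads at 3.45 FPKM, with 14 tagged and 0 untagged. Srpk1, which phosphorylates SR splicing proteins, had 16 reads at 28.8 FPKM, with 15 tagged and 0 untagged. These 3 genes had phastCons scores of 0.0534, 1 and 1 at the place. Mapk8, which encodes the kinase JNK1, had 14 reads at 7.88 FPKM with 12 tagged and 0 untagged reads, and the strongest crosslink lay on the first base of the match. Uhmk1, a kinase that acts on splicing factors and p27, had 14 reads at 3.72 FPKM with 14 tagged and 1 untagged. AI837181 had 15 reads at 1.88 FPKM with 15 tagged and 0 untagged. N4bp1 and Ubr3, the latter a ubiquitin ligase, had 11 reads each, with 10 and 8 tagged reads and 0 untagged. In these 8 clusters the miR-15/16 match was always present, alone besides miR-103/miR-107 in Frrs1, Mtmr4, Mapk8, Uhmk1 and N4bp1.

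The other 7mers in this group were in clusters with other company. Ppp6c, the catalytic subunit of protein phosphatase 6, had the most reads of any place, 39 at 23.9 FPKM with a phastCons score of 1, at chr2:39052756-39052762 on the minus strand. Its cluster had 38 tagged and 0 untagged reads, at least 12.7-fold (p = 3.64e-12 in the authors' deposited table), but it also held the miR-294 match AGCACTT, the miR-17 match GCACTTT and a separate miR-15/16 match, and the strongest crosslink lay 21 nt before the match. Arhgef7, an exchange factor for small GTPases, had 22 reads at 0.574 FPKM in a cluster of 22 tagged and 1 untagged reads that held the same miR-294 and miR-17 matches and the miR-135 match AAGCCAT. Its strongest crosslink lay 24 nt before the match. Casp2, the protease caspase 2, had 13 reads, and its larger cluster of 42 tagged reads and 1 untagged read was 145 nt wide with crosslinks 78 and 91 nt after the match, and the matches of miR-17 and miR-290a lay in the same cluster. A second cluster at that place, of 6 tagged and 0 untagged reads over 40 nt, held no other listed match.

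Fem1b, a substrate receptor of a ubiquitin ligase, had 11 reads at 47.8 FPKM at chr9:62642646-62642652 on the minus strand. One of its clusters, of 9 tagged and 0 untagged reads, held the miR-103/miR-107 match alone, and the other, of 10 and 0, also held GTGCCAA, the miR-96 match. Btg2, an antiproliferative gene, had 2 places in clusters. The one at chr1:135973903-135973909 on the minus strand had 10 reads and 2 clusters of 5 and 6 tagged and 0 untagged reads, with no other listed match. The one at chr1:135973068-135973074 had 9 reads and carried the miR-15/16 match. The 9 clusters without another listed match all had 5 to 9 tagged and 0 untagged reads. For those of fewer than 7 reads the authors' threshold fixed the 0. Fem1b had the largest, at least 3-fold against the floor, and Hp1bp3, which binds heterochromatin protein 1, followed with 8 reads at 0.57 FPKM. Alpk3, a kinase of muscle, had 2 overlapping clusters of 7 reads each, and Mynn, a zinc finger protein, had 1 of 5.

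**Figure D4:**
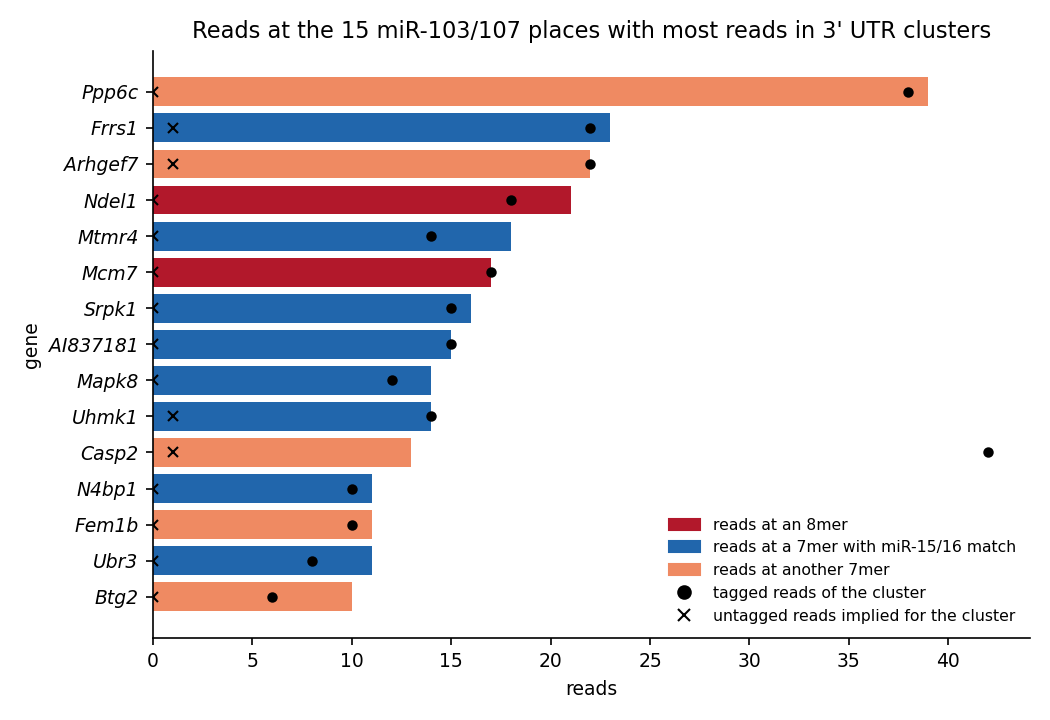
Reads at the 15 miR-103/miR-107 places with most reads among those in 3′ UTR clusters, 1 gene per bar (horizontal axis in reads, from 0). Colours give the class of the place, dots the tagged reads and crosses the implied untagged reads of the cluster at that place (the one with most tagged reads where there are 2). Ppp6c is highest at 39 reads, the 2 8mers of Ndel1 and Mcm7 have 21 and 17, and the dot of Casp2 at 42 lies far beyond its bar of 13 reads because that cluster is 145 nt wide.

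In coding sequence 4 places were in clusters, and 3 of them are described. Atl2, a GTPase that shapes the endoplasmic reticulum, had 7 reads with the strongest crosslink 1 nt after the first base, and Atm, the kinase of the DNA damage response, had 6. Ankrd52, a regulatory subunit of protein phosphatase 6, had 2 reads in a cluster of 9 tagged and 0 untagged reads, which is 279 nt wide and is lost when clusters wider than 200 nt are left out. These 3 were joint places, with phastCons scores of at least 0.991. Elsewhere the 8mer in the pseudogene Gm13410 had 21 reads and a cluster of 25 tagged and 0 untagged reads with 3 other listed matches, and the 8mer in the 5′ UTR of Slmap had 4 reads and a cluster of 5 and 0 with none. The Slmap cluster (chr14:27353417-27353442) covers only the edge of its 8mer (chr14:27353441-27353448). Reads in a pseudogene may be shared with a copy elsewhere, and the authors' handling of such reads was not stated.

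Some abundant transcripts had no read at a 3′ UTR match, although the share with a read was highest in the top expression class. The 6 of highest expression among places with 0 reads are named. Ncl, the nucleolar protein nucleolin, was listed at 965 FPKM with 0 reads at a joint place. Cfl1, the actin-severing protein cofilin 1, had 0 reads at 695 FPKM with a phastCons score of 0.997. Rpl6 (564 FPKM), Caprin1 (235 FPKM), Rbm8a (219 FPKM) and the 8mer of Ash2l (190 FPKM) also had 0. Among places outside clusters the most reads were at Ddx17, an RNA helicase, with 12 in coding sequence, and at the 8mer of Lpin1, a phosphatidate phosphatase, with 11 at 0.74 FPKM. Icmt had 9, Rxra 8, Cnot1 7, Kif5b and Rbm38 6 each and Xrn2 5. These outside-cluster genes were picked by their reads after the data were seen.

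Few genes held several places. In 3′ UTRs 1262 genes had 1 place, 141 had 2 and 20 had 3 or more. At least 2 places with a read occurred in 11 genes and at least 3 in 1 gene, 2310008H09Rik, whose 4 places had 2, 1, 1 and 1 reads.

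Of 24 symbols on a list of genes reported as miR-103/miR-107 targets, 20 were in the table and 13 had a place, 5 of them with a read and 2 in a cluster, beside 19.9 and 1.41% of all genes with a place. The list was drawn from general knowledge and not checked against reports. Ndel1 had 21 reads, as above. Nf1, a brake on Ras, had 7 reads at a joint place and a cluster of 6 tagged and 0 untagged reads. Cdk6 and Wnt3a had 3 reads each and Lats2 2, all in 3′ UTRs. Axin2, Bace1, Arnt, Cdk2, Cdk5r1, Cfl1, Dapk1 and Per3 had 0 reads. Dicer1, Klf4, Grn, Timp3, Map3k7 and Ccne1 were among those in the table with no 7mer or 8mer of this seed.

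The counts of the other lists stand beside 3124 of 15271 genes with a place over the whole table, and of those 19.9% with a read at one and 1.41% with one in a cluster. These lists hold 1 to 9 genes with a place each. In the microRNA pathway 9 of 25 genes in the table had a place and 3 a read: Cnot1, the scaffold of the deadenylase complex, 7, and Cnot6l and Lin28a 1 each. Of the pantothenate kinases and the other enzymes of coenzyme A synthesis, Coasy alone of 7 genes had places, with 0 reads. Of the insulin and IGF genes 6 of 23 had a place and 3 a read. Tsc1, an inhibitor of growth signalling, had 4 and 1 reads at its 2 3′ UTR places, and Pik3r1 and Rptor had 1 each.

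In the cell cycle list 8 of 23 genes had a place, 4 a read and 2 a place in a cluster, beside the same 19.9 and 1.41% of all genes with a place. These were Btg2, with 10 and 9 reads, and Rbl2, a relative of the retinoblastoma protein, with 9 reads at a joint place and a cluster of 8 tagged and 0 untagged reads. Cdk6 and Lats2 were the other 2, and Ccnd1 had 0 reads at 38 FPKM. In the Wnt list 6 of 21 genes had a place and 2 a read, Wnt3a with 3 and Dvl1 with 1. In the pluripotency list 5 of 25 had a place and 4 a read, Sall4 and Tet1 with 2 each and Nanog and Nr5a2 with 1 each, with no place in a cluster.

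Crosslinks at miR-103/miR-107 places lay more often on the match, 7 nt wide, than in the 5 nt just before it. The position with most crosslink events, in clusters that name a single one, was within the 7 bases of the match in 11 of 29 cluster and place pairs (37.9%, interval 20.7 to 57.7%) and 1 to 5 nt before it in 2 (6.9%, interval 0.846 to 22.8%). For the 49 other seeds these shares were 19.2 and 21% of 1666 pairs, and for miR-15/16 28.8 and 10.6% of 104. The miR-103/miR-107 interval on the match lies just above 19.2%, and that before the match holds 21%. Mapk8, Uhmk1, AI837181 and Atl2, with crosslinks on the match, were joint places, so these pairs cannot be given to 1 family. In 6 pairs from clusters with no other listed match, 0 lay 1 to 5 nt before the match, where the exact interval reaches 45.9%. Among these, the 2 Btg2 clusters named the same base, 9 nt before the match, and the 2 Alpk3 clusters also named the same base. The 6 pairs are therefore fewer separate positions, and their interval is too narrow. How many of the 6 lay on the match was not tested. Overlapping clusters share reads, and the 29 pairs are not independent.

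**Figure D5:**
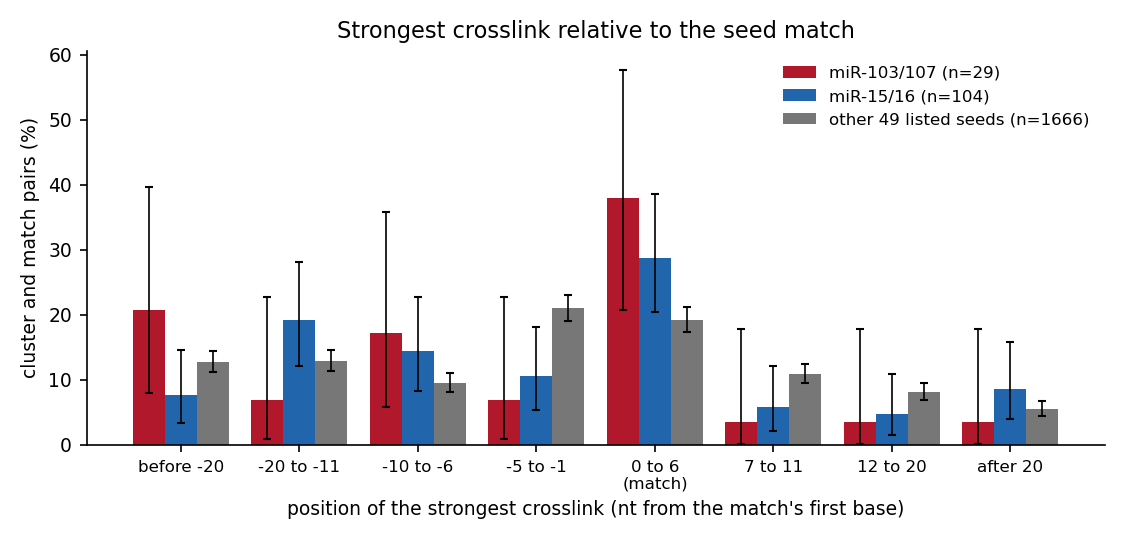
Position of the strongest crosslink relative to the first base of the seed match (nt, horizontal axis) as a share of cluster and match pairs (percent, vertical axis from 0), for miR-103/miR-107 (29 pairs), miR-15/16 (104) and the other 49 listed seeds (1666), with exact 95% binomial intervals. The miR-103/miR-107 bars are highest on the match, at 37.9%, and the other 49 seeds are at 21% just before it and 19.2% on it.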

How the data were processed

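The site table and the cluster list of the tagged iCLIP library were analysed, and no file of the untagged library was used. The submitters' processing notes name Bowtie, TopHat, mm9 and NCBIM37, without roles. The cluster caller, the treatment of duplicate reads and the source of the expression values were not stated.

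Per the file headers, site coverage is in rpm. Each of the 1641948 values (100%) came out as a whole number of reads worth 1.27 rpm (tolerance 0.001), which gives 789000 reads for the library. Isoform expression is FPKM as deposited. The authors' log2 coverage equals the log2 rpm, less 0.24 times the log2 FPKM, plus a constant (-1.69). PhastCons is a score from 0 to 1 as deposited. Cluster height is a signal in whole reads per the file headers. The deposited cluster log2 and p-value were matched in 6211 of 6211 clusters (tolerances 0.0051 and 0.0001) by tagged reads plus 1 over untagged reads plus 1 and a binomial test, which gave the implied untagged counts. How these were scaled is not known. Other deposited text columns gave crosslink positions. They count from the genomic start of the cluster: on the minus strand this put 20.5% of 804 pairs 1 to 5 nt before the match, and counting from the 5′ end 3.61%.

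Sites were made distinct by position and strand, which removed 119 repeats of 4678 entries. The 894248 8mers of no listed seed served as comparison after 170165 overlapping a 6mer, 7mer or 8mer match of a listed seed were left out. Chromosome 18 places (56) were counted, and no sequence of them is printed. The named genes are those with most reads among 3′ UTR places in clusters (15 first), in coding sequence (6 first) and elsewhere (4 first), the 6 of highest FPKM with 0 reads, genes with at least 3 3′ UTR places with a read, and, in each list, genes with a place in a cluster and up to 4 with most reads. A few genes that this rule or the lists name are not reported here. The members and lists were chosen with earlier results of these data known. Alternatives were at least 2 reads, at least 1 FPKM, entries as listed, nested 7mers or miR-15/16 overlaps left out, clusters as support, p under 0.01, the whole site inside a cluster, clusters across splice junctions or wider than 200 nt left out, and 3′ UTR sites only. Counting was tested on simulated data. Tools were Python 3.11.15, pandas 2.3.3, numpy 2.4.6, scipy 1.17.1 and matplotlib 3.10.9.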

Additional observations from a re-analysis of the deposited data

How the results depend on the processing

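With 1 library per group no replicate could be left out, and no paired analysis was possible because no group has a second library. Of 27 alternative settings 10 left the value within its interval or within 1.5 times the count, and 17 moved it. The share of all matches with a read went from 15.4% to 5.72% with at least 2 reads, 21% in genes of at least 1 FPKM, 13.2% without matches that overlap miR-15/16, and 1.01% with clusters as support. For 3′ UTR 8mers (20.8%) it was 7.57% with at least 2 reads and 0.946% with clusters. For 3′ UTR 7mers (23.6%) it was 10.8% with at least 2 reads, 29% at 1 FPKM and above, 17.3% without miR-15/16 overlaps and 2.84% with clusters, so without those overlaps the 7mers stood below the 8mers. Places followed by A, followed by T and others had 4.86, 8.11 and 4.22% with at least 2 reads, and 20.8, 29.7 and 17.4% in 3′ UTRs only, so the joint places stayed highest. The 46 matches in clusters became 31 at p under 0.01, 42 with the whole site inside and 45 without junction and wide clusters. Crosslinks 1 to 5 nt before the match were 2 of 29, and 0 of 6 in clusters with no other listed match. The last setting and clusters as support for 3′ UTR shares were chosen after seeing the data.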
